A study of Mus musculus with 18 samples.

Results

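The 53 genes described here encode ribosome biogenesis factors, the proteins that make and assemble the parts of the ribosome. They were taken by symbol from a list of known factors, by a rule that sets no threshold on any measured value, though the list was drawn up with earlier results of these data known, and all 53 were found among the 55450 genes of the table. In the nucleolus, RNA polymerase I copies the ribosomal DNA into a long precursor RNA, small nucleolar ribonucleoproteins guide its chemical modification, and large assemblies cut and fold it into the small (40S) and large (60S) subunits. Growing cells invest heavily in this work, and enlarged nucleoli are a long-known feature of tumour cells. Many of the genes are known targets of the transcription factor MYC.

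RNA was measured in 3 mouse tumour cell lines, which the labels call breast carcinoma (4T1), colon adenocarcinoma (MC38) and Lewis lung carcinoma (LLC), all with genotype W.T. Cells received 100 µM sildenafil citrate, an inhibitor of the cyclic GMP phosphodiesterase PDE5, or DMSO as control. Exposure was 24 hours for MC38 and 4T1 but 48 hours for LLC, and 4T1 was grown in RPMI 1640 but MC38 and LLC in DMEM. Each of the 6 groups (4T1, MC38 and LLC with sildenafil, and the DMSO control of each) had 3 libraries. Nothing in the labels states that a group's 3 libraries are separate cultures, and p-values therefore cover no more than the variation among those libraries, possibly technical. In comparisons between lines, the line cannot be told apart from the medium (4T1 against the others) or from treatment time (LLC against the others).

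Libraries held 26348654 to 61600646 expected counts, and the deepest were those of 4T1 (41070021 or more). Untreated 4T1 had 11 of 12 epithelial markers above 1 CPM (counts scaled to the size of the library) and 5 of 9 mammary markers (Csn3, Gata3, Esr1, Krt14 and Krt8) above that level, with Wap, Csn2, Elf5 and Pgr at 0. Untreated MC38 had 4 of 12 epithelial markers above that level, with Epcam at 0, and 1 of 8 intestinal markers (Cdh17), with Cdx1, Cdx2, Vil1, Lgr5 and Krt20 at 0. Untreated LLC had 1 of 12 epithelial markers (Krt8) and 2 of 8 lung markers (Napsa and Hopx) above it, with Nkx2-1, Sftpc, Sftpb, Sftpa1 and Scgb1a1 at 0. These markers were not particular to 1 line. Of the mammary markers, Esr1, Krt14 and Krt8 were above 1 CPM in untreated MC38, and Csn3, Esr1 and Krt8 in untreated LLC. The lung marker Hopx was above it in untreated MC38. Of 9 fibroblast markers, 7 were above it in untreated MC38, 4 in untreated LLC and 2 in untreated 4T1. In bulk RNA, fewer cells that express a gene and less of its RNA per cell cannot be told apart.

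All 53 genes are annotated as protein-coding, and all 53 passed the filter on low counts in every comparison, with group means from 19.8 to 2953 CPM. Set per kilobase of exon and averaged over the 18 libraries, levels ran from 7.22 CPM per kilobase for Wdr12 to 821 for Npm1 (nucleophosmin, an abundant nucleolar chaperone). Within the other roles, the highest levels on this scale were those of Nhp2 (95.0) for the box H/ACA proteins, Nop56 (82.5) for the box C/D proteins and Noc2l (79.7) for 60S assembly. Imp3 (64.0), Wdr43 (50.6), Pno1 (43.4) and Polr1c (29.0) led the remaining processome factors, the UTP subcomplexes, the late 40S factors and the polymerase subunits in that order. Across the 53 genes, the response in 4T1 had Pearson's r = 0.20 (Spearman's rho = 0.12) with the log2 level per kilobase. Pearson's r was -0.10 for the response in MC38 and -0.04 for that in LLC. These values are a description over genes of the same libraries.

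In 4T1 cells nearly the whole set was lower after sildenafil. Of the 53 genes, 52 fell and 0 rose at an adjusted p under 0.05 (edgeR's quasi-likelihood test, Benjamini-Hochberg adjustment over all genes), where 33.3% of the 13914 genes tested fell and 33.5% rose. The median log2 fold change, sildenafil over control, was -0.83, against 0.00 for all genes tested. A fall of 2-fold or more was called in 14 members, where 1.43% of all genes fell as far. In all 53 members every sildenafil library lay below every control library, which held for 35.3% of all genes. The levels of the 53 genes summed to 7606, 7669 and 7263 CPM in sildenafil-treated 4T1, against 12324, 12716 and 12599 CPM in control 4T1. These are shares of each library's mRNA, and the amount of RNA per cell was not measured.

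**Figure D1:**
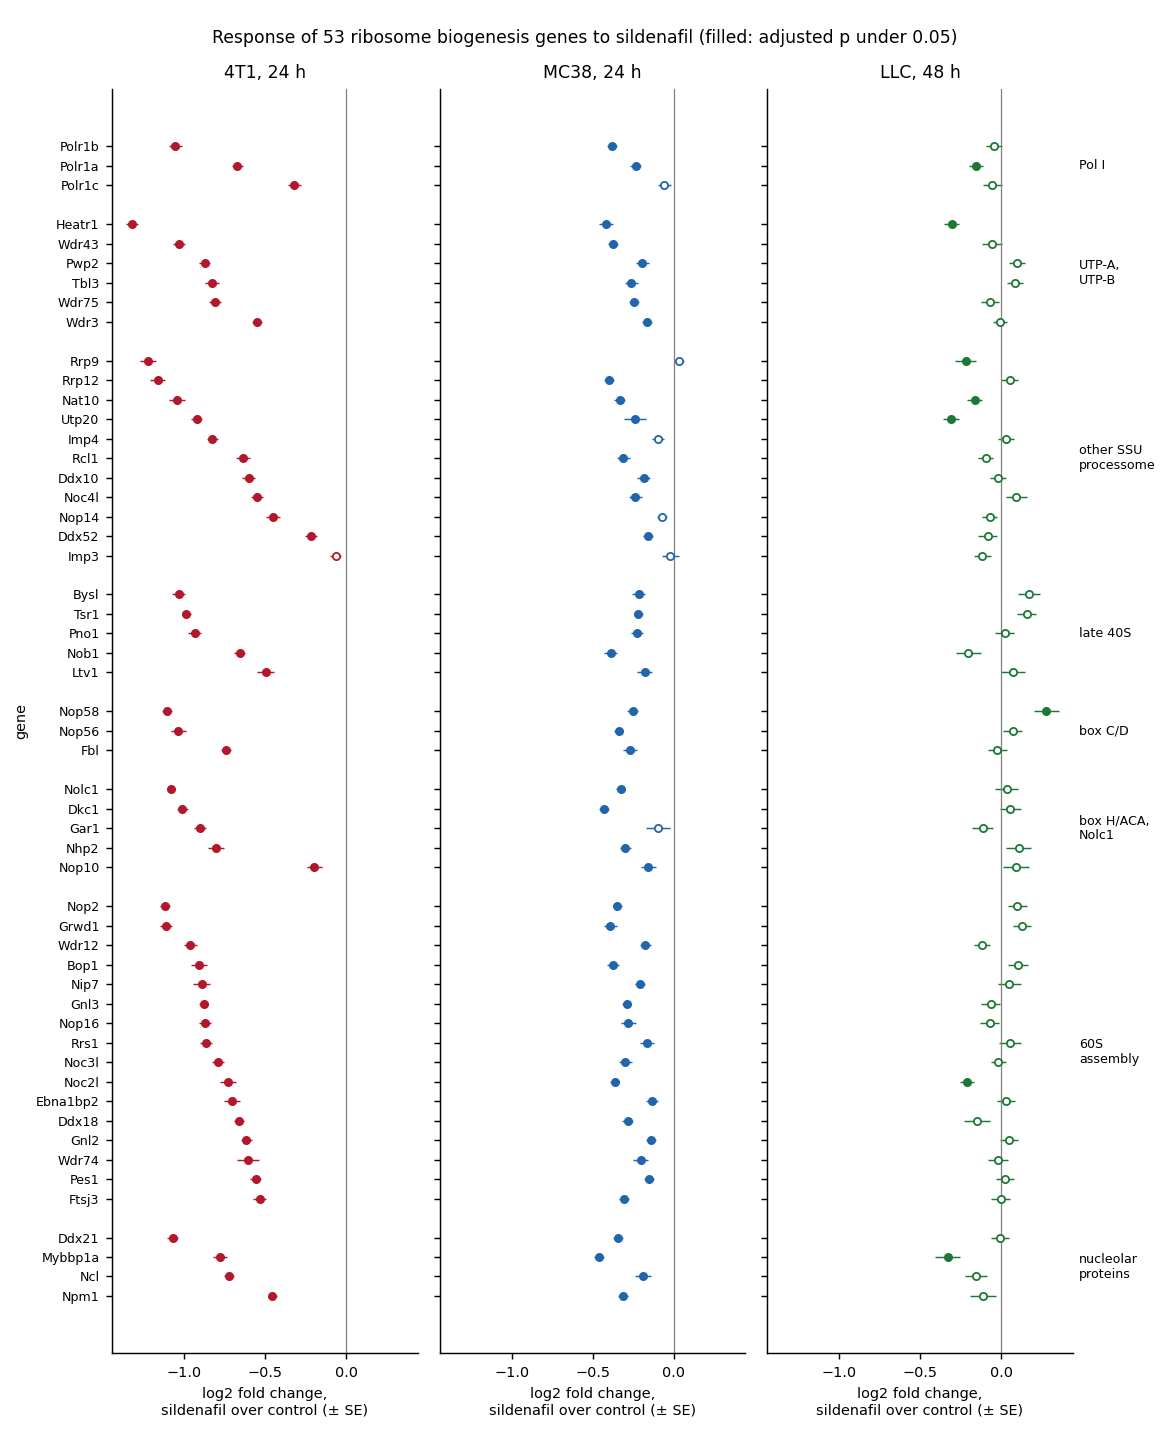
Log2 fold change (sildenafil over control, ± SE, 3 against 3 libraries) of the 53 genes in 4T1, MC38 and LLC, grouped by role; filled points passed an adjusted p of 0.05. In 4T1 every gene but Imp3 passed and lies below 0, in MC38 47 passed and lie below 0, and in LLC 8 passed.

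All 3 subunits of RNA polymerase I fell in 4T1. Polr1b, of the catalytic core, had 25.6, 25.9 and 26.7 CPM in sildenafil-treated 4T1, against 53.5, 53.9 and 54.8 CPM in control 4T1, and its log2 fold change was -1.05 ± 0.0378 (SE). Polr1a, the largest subunit, stood at -0.67 ± 0.0324, and Polr1c, which RNA polymerase III also uses, at -0.32 ± 0.0404. The 3 subunits of 1 enzyme thus ranged widely while sharing their direction.

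The small subunit processome forms on the precursor RNA as it is made, and its UTP-A and UTP-B subcomplexes join early. All 6 measured proteins of these subcomplexes fell in 4T1. Heatr1, a large UTP-A protein, lies on mm10 chr13:12395027-12440289 (plus strand) and had the lowest log2 fold change of the 53 genes. It had 56.1, 56.2 and 53.8 CPM in sildenafil-treated 4T1, against 133.1, 140.5 and 141.6 CPM in control 4T1 (-1.32 ± 0.0362, adjusted p = 5.5e-12, edgeR). The treated libraries lay close together and far below the controls. Wdr43, also of UTP-A, had 212.2, 213.3 and 194.9 CPM in sildenafil-treated 4T1, against 412.5, 432.4 and 424.4 CPM in control 4T1 (-1.03 ± 0.0368). Wdr3 of UTP-B had the smallest change of the 6 at -0.55 ± 0.0295.

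Of the 11 other processome factors, 10 fell in 4T1. Rrp9, a protein of the U3 small nucleolar ribonucleoprotein on chr9:106475963-106485424 (plus strand), had 58.3, 58.6 and 51.4 CPM in sildenafil-treated 4T1, against 126.2, 133.2 and 134.1 CPM in control 4T1 (-1.22 ± 0.0483). Rrp12, known in yeast for maturation and export of the subunits, had 36.9, 38.2 and 33.0 CPM in sildenafil-treated 4T1, against 78.2, 82.0 and 82.3 CPM in control 4T1 (-1.16 ± 0.0488). In both genes the treated libraries lay far below the controls. Nat10, which acetylates cytidines of 18S rRNA, stood at -1.04 ± 0.050, and Utp20, a large scaffold protein, at -0.92 ± 0.0361.

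The same role held Imp3, the weakest response of the 53 genes in 4T1, and Ddx52, the third weakest, with Nop10 of the box H/ACA proteins between them. Imp3 and Imp4 belong to the same complex, the Mpp10 complex, yet Imp4 stood at -0.83 ± 0.0345 and Imp3 was not called. Imp3, a gene of chr9:56937475-56938398 (plus strand), had 74.3, 72.7 and 70.0 CPM in sildenafil-treated 4T1, against 75.4, 76.1 and 75.6 CPM in control 4T1 (-0.07 ± 0.0346, adjusted p = 0.113, edgeR). Its treated libraries lay below the controls without overlap, by a small margin. Ddx52, an RNA helicase, had 65.4, 67.0 and 65.0 CPM in sildenafil-treated 4T1, against 76.8, 78.2 and 74.7 CPM in control 4T1 (-0.22 ± 0.0342). Nop14 and Noc4l, partners in the processome, stood at -0.45 ± 0.0412 and -0.55 ± 0.0382.

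All 5 late 40S factors fell in 4T1, from Bysl at -1.03 ± 0.0398 to Ltv1 at -0.50 ± 0.0496. Nob1, the nuclease that cuts the 3′ end of 18S rRNA, stood at -0.66 ± 0.0341, and Pno1, which acts beside it, at -0.94 ± 0.0427. Pno1 had 57.8, 56.0 and 53.8 CPM in sildenafil-treated 4T1, against 100.8, 110.5 and 109.6 CPM in control 4T1. The groups were well apart.

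The box C/D proteins carry guide RNAs for ribose methylation, and all 3 fell in 4T1. Nop58, a core protein on chr1:59684971-59719044 (plus strand), had 231.6, 233.7 and 223.8 CPM in sildenafil-treated 4T1, against 478.4, 500.6 and 500.5 CPM in control 4T1 (-1.10 ± 0.0308). Its partner Nop56 had 236.9, 241.0 and 207.6 CPM in sildenafil-treated 4T1, against 459.1, 474.0 and 471.9 CPM in control 4T1 (-1.03 ± 0.0487). The methyltransferase Fbl (fibrillarin) stood at -0.74 ± 0.0311, so all 3 were well below their controls.

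The box H/ACA proteins carry guide RNAs for pseudouridylation, and are also part of telomerase. Dkc1, the pseudouridine synthase, stood at -1.01 ± 0.0341 in 4T1 and Gar1 at -0.90 ± 0.0352. Nhp2, a core RNA-binding protein of the particle, had 86.5, 83.2 and 73.6 CPM in sildenafil-treated 4T1, against 137.0, 145.6 and 142.6 CPM in control 4T1 (-0.80 ± 0.0518). Nop10, the smallest protein of the particle, had 31.4, 31.2 and 31.5 CPM in sildenafil-treated 4T1, against 34.5, 35.0 and 38.5 CPM in control 4T1 (-0.20 ± 0.0469, adjusted p = 0.00205, edgeR). Among the 52 genes called in 4T1, Nop10 had the smallest log2 change, while its partners in the particle were 0.80 or more below their controls on that scale. Nolc1, a chaperone of these particles, stood at -1.08 ± 0.0270.

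All 16 factors of 60S assembly fell in 4T1, from Nop2 at -1.12 ± 0.0305 to Ftsj3, a ribose methyltransferase, at -0.53 ± 0.0415. Nop2, a cytosine methyltransferase of 28S rRNA, had 66.0, 66.2 and 66.1 CPM in sildenafil-treated 4T1, against 141.4, 143.8 and 145.6 CPM in control 4T1. Grwd1, which escorts the ribosomal protein L3, had 34.2, 35.8 and 34.5 CPM in sildenafil-treated 4T1, against 72.5, 76.9 and 75.9 CPM in control 4T1 (-1.11 ± 0.0375). In both genes treated libraries lay near the midpoint between 0 and the controls. Noc2l, the 60S factor with the highest level per length, had 134.9, 132.4 and 115.7 CPM in sildenafil-treated 4T1, against 211.6, 215.0 and 210.0 CPM in control 4T1 (-0.73 ± 0.0489). The PeBoW complex, which acts in 28S and 5.8S rRNA maturation, was uneven, with Wdr12 at -0.96 ± 0.0415, Bop1 at -0.91 ± 0.0499 and Pes1 at -0.56 ± 0.0328. Among GTPases, Gnl3 (nucleostemin) stood at -0.88 ± 0.0287 and Gnl2 at -0.62 ± 0.0329.

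The 4 abundant nucleolar proteins fell as well in 4T1. Ncl (nucleolin, which binds precursor RNA) had 1334, 1381 and 1315 CPM in sildenafil-treated 4T1, against 2225, 2257 and 2180 CPM in control 4T1 (-0.73 ± 0.0309). Npm1 had 1785, 1784 and 1729 CPM in sildenafil-treated 4T1, against 2401, 2451 and 2415 CPM in control 4T1 (-0.46 ± 0.0292). Both groups were tight and apart, and the difference in CPM between the groups was among the widest of the set. Ddx21, an RNA helicase of the nucleolus, stood at -1.07 ± 0.0311, and Mybbp1a, a Myb-binding nucleolar protein, at -0.78 ± 0.0434.

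**Figure D2:**
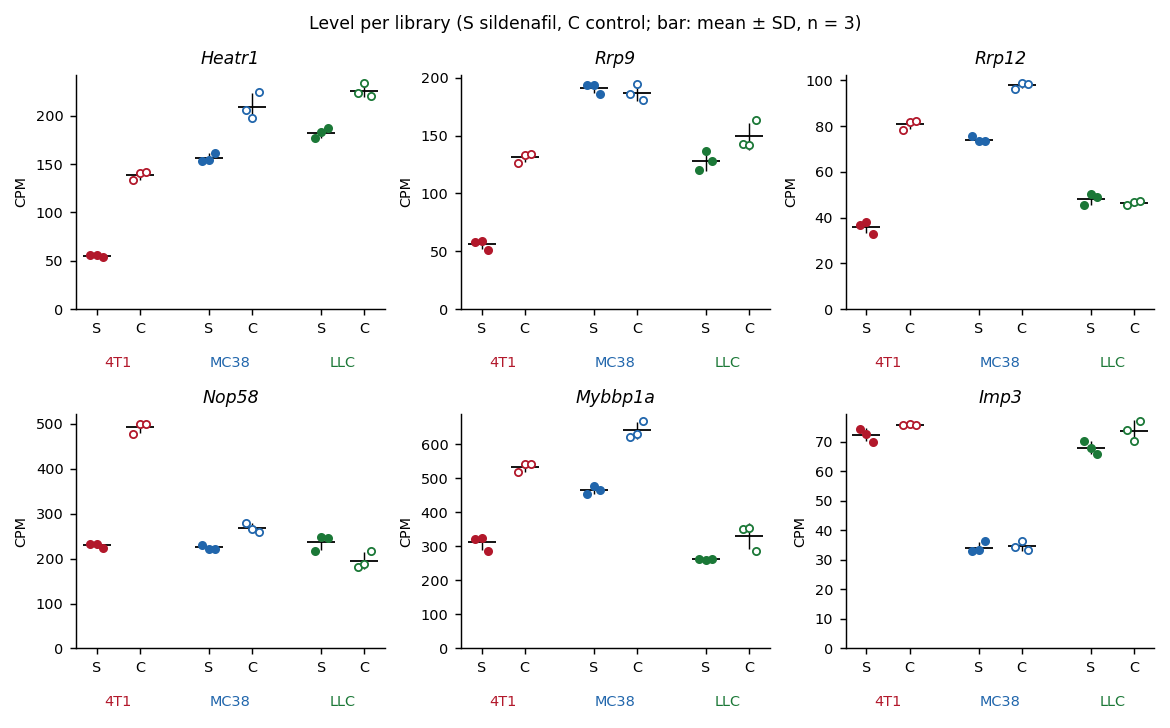
CPM per library of 6 genes in 4T1, MC38 and LLC, with sildenafil left of control and the mean ± SD of 3 libraries; each vertical axis starts at 0. Heatr1 and Mybbp1a are lower with sildenafil in each line, Rrp9 differs least in MC38, Rrp12 is lower in 4T1 and MC38, Nop58 is higher with sildenafil in LLC, and Imp3 changes little.

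The promoters of 5 members are shown because 4 of the genes fell in 4T1 and 1 did not, while their letters differ in a pair of motifs. They are RefSeq windows of GRCm38.p6, from 250 bases before to 50 bases after the start site, written 5′ to 3′ on the gene's strand. Capitals mark CACGTG, the E-box that MYC and related factors bind, and CCGGAAG, a core that ETS factors bind, on either strand. The windows are chr6:125131633-125131932 (plus strand) for Nop2, chr7:45830740-45831039 (minus strand) for Grwd1, chr11:72441077-72441376 (plus strand) for Mybbp1a, chr13:12395125-12395424 (plus strand) for Heatr1 and chr9:56937250-56937549 (plus strand) for Imp3.
Nop2: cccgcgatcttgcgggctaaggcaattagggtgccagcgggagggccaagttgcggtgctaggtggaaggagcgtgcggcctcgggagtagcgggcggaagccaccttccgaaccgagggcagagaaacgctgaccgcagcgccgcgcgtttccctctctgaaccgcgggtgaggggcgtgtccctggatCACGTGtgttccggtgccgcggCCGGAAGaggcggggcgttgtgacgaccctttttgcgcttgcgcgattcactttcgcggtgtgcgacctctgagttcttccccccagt
Grwd1: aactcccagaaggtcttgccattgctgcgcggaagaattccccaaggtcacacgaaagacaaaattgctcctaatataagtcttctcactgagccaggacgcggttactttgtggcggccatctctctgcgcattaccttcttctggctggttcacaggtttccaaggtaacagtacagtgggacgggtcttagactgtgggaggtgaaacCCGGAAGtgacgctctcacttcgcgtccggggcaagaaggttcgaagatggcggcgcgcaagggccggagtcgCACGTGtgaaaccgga
Mybbp1a: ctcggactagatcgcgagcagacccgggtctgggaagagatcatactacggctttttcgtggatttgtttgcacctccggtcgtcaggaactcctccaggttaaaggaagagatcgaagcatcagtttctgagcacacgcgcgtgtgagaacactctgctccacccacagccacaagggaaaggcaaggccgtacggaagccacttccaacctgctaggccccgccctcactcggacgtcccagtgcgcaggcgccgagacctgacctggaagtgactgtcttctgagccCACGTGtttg
Heatr1: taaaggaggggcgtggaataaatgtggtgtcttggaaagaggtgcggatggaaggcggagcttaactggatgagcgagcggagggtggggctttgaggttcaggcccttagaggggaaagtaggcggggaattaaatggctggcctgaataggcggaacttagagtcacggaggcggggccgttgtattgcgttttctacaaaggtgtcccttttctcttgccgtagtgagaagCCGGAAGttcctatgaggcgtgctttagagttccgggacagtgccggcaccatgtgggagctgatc
Imp3: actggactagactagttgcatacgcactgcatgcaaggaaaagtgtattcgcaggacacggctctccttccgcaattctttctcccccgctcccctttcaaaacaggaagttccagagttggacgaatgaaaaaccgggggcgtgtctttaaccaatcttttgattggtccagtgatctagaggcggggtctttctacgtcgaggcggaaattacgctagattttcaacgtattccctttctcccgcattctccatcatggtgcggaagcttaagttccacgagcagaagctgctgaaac

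Nop2 and Grwd1 held both motifs, Mybbp1a an E-box alone, Heatr1 a CCGGAAG alone and Imp3 neither. Counted from the start site, the first base of the E-box lay at -60 in Nop2, 35 in Grwd1 and 41 in Mybbp1a, and that of CCGGAAG at -38 in Nop2, -39 in Grwd1 and -16 in Heatr1. The motifs did not overlap in these windows. RefSeq start sites can differ from the gene coordinates given above. The windows of Heatr1 and Rrp9 lie inside those coordinates, and the bases at the outer starts of these genes were not searched. A match describes letters, not binding. The windows were chosen with both responses and motifs known, and whether a motif goes with the response was not tested. Other members with neither motif in their window also fell in 4T1, among them Rrp9 (log2 fold change -1.22), Nop58 (-1.10) and Ddx21 (-1.07). Ddx52 (-0.22) and Nop10 (-0.20), which fell least in 4T1, had neither motif too.

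A window was matched for 46 of the 53 genes, leaving Rrs1, Rrp12, Tbl3, Bop1, Npm1, Gnl2 and Fbl. CACGTG was found in 10 of the 46 (21.7%), against 11.9% of the 9782 genes tested in 4T1 that have a window and 8.09% of all genes with one. The 10 were Grwd1, Imp4, Ltv1, Mybbp1a, Nop2, Pes1, Pno1, Tsr1, Utp20 and Wdr43. CCGGAAG was found in 17 of the 46 (37.0%), against 20.9% of those genes tested in 4T1 and 9.93% of all. The core palindrome of 10 letters that NRF1 binds was found in Pno1 alone of the 46, against 2.39% of those tested in 4T1 and 1.07% of all. In 4T1 the median log2 fold change was -0.93 for the 10 members with an E-box and -0.80 for the 36 without, and -0.80 with CCGGAAG and -0.83 without. In MC38 it was -0.23 with an E-box and -0.24 without. These medians were not tested.

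In MC38 cells, treated for the same 24 hours, most of the set fell by a smaller amount. Of the 53 genes, 47 fell and 0 rose (edgeR, adjusted p under 0.05), where 18.3% of the 13363 genes tested fell and 19.5% rose. The median log2 fold change was -0.25, against 0.00 for all genes, and 0 members fell by 2-fold, where 0.232% of all genes did. Every sildenafil library lay below every control library in 48 members, which held for 23.6% of all genes. The levels summed to 9005, 8995 and 8924 CPM in sildenafil-treated MC38, against 11029, 10912 and 10812 CPM in control MC38.

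Mybbp1a had the lowest log2 fold change in MC38. This gene, on chr11:72441355-72451768 (plus strand), had 452.6, 476.7 and 466.7 CPM in sildenafil-treated MC38, against 621.9, 630.8 and 668.7 CPM in control MC38 (-0.46 ± 0.0326, adjusted p = 4.23e-08, edgeR). Dkc1 had 108.8, 109.0 and 111.2 CPM in sildenafil-treated MC38, against 152.0, 142.7 and 149.0 CPM in control MC38 (-0.43 ± 0.0319). Heatr1 had 153.6, 154.6 and 161.7 CPM in sildenafil-treated MC38, against 206.0, 197.3 and 224.7 CPM in control MC38 (-0.42 ± 0.0440). In these genes the treated libraries lay clearly below the controls.

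By role, all 16 factors of 60S assembly fell in MC38, from Grwd1 at -0.39 ± 0.0400 to Ebna1bp2 at -0.13 ± 0.0384. The call of Ebna1bp2 was lost without sildenafil replicate 3 and in 1 fit over 18 libraries. All 6 UTP proteins, all 5 late 40S factors, all 3 box C/D proteins and all 4 abundant nucleolar proteins fell too, although Ncl lost its call with the replicate block. Npm1, the most abundant of the set, had 2398, 2377 and 2357 CPM in sildenafil-treated MC38, against 3030, 2970 and 2858 CPM in control MC38 (-0.31 ± 0.0296). Among box H/ACA proteins and Nolc1, 4 of 5 fell, among polymerase subunits 2 of 3, and among other processome factors 7 of 11. Nop10, one of these 4, lost its call in 1 fit over 18 libraries and without control replicate 1, sildenafil replicate 2 or sildenafil replicate 3.

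The 6 members not called in MC38 were Rrp9, Imp3, Polr1c, Nop14, Gar1 and Imp4. Rrp9 had 193.7, 193.6 and 186.1 CPM in sildenafil-treated MC38, against 185.8, 194.9 and 180.4 CPM in control MC38 (0.03 ± 0.0333, adjusted p = 0.505, edgeR). Imp3 had 32.8, 33.3 and 36.3 CPM in sildenafil-treated MC38, against 34.2, 36.4 and 33.4 CPM in control MC38 (-0.02 ± 0.0514). Polr1c had 52.8, 50.9 and 48.3 CPM in sildenafil-treated MC38, against 52.4, 52.7 and 53.1 CPM in control MC38 (-0.06 ± 0.0411). The groups overlapped in all 3 genes, although Rrp9 had 1 of the strongest falls in 4T1.

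In LLC cells, treated for 48 hours, no shift of the whole set was seen. Of the 53 genes, 7 fell and 1 rose (edgeR, adjusted p under 0.05), where 12.2% of the 13561 genes tested fell and 15.1% rose. The share of members that fell, 13.2%, was near that of all genes. The median log2 fold change was -0.02, against -0.01 for all genes. Treated and control libraries overlapped in 42 members, and in the other 11 every sildenafil library lay below every control library, which held for 20.6% of all genes. The levels summed to 8467, 8990 and 9197 CPM in sildenafil-treated LLC, against 9015, 9138 and 9674 CPM in control LLC, with overlap.

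The 7 members that fell in LLC were Mybbp1a, Utp20, Heatr1, Rrp9, Noc2l, Nat10 and Polr1a. Heatr1 had 176.9, 183.4 and 187.3 CPM in sildenafil-treated LLC, against 223.4, 233.6 and 220.8 CPM in control LLC (-0.31 ± 0.0452, adjusted p = 0.00117, edgeR). Utp20 had 196.4, 190.6 and 201.9 CPM in sildenafil-treated LLC, against 240.1, 256.3 and 233.0 CPM in control LLC (-0.31 ± 0.0499, adjusted p = 0.00197, edgeR). The groups were apart in both, and both calls held in the 15 alternatives tried.

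Mybbp1a had 263.9, 261.0 and 263.0 CPM in sildenafil-treated LLC, against 351.8, 353.6 and 286.8 CPM in control LLC (-0.33 ± 0.0764, adjusted p = 0.0125, edgeR). The third control library lay nearer to the treated libraries than to the other controls, and the call was lost without sildenafil replicate 2, without sildenafil replicate 3 or with the covariate described further on (the level of Gm26917). Noc2l, a 60S factor, stood at -0.21 ± 0.0456 and lost its call without sildenafil replicate 2. Rrp9 had 119.9, 136.6 and 127.8 CPM in sildenafil-treated LLC, against 143.1, 141.8 and 163.0 CPM in control LLC (-0.22 ± 0.0671), and lost its call without control replicate 1, sildenafil replicate 1 or sildenafil replicate 3. Nat10 (-0.16 ± 0.0469) and Polr1a (-0.16 ± 0.0440) each lost theirs without any 1 of the LLC libraries other than control replicate 3, and Polr1a also with that covariate and with scaling by library totals.

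Nop58 was the 1 member that rose in LLC. It had 217.6, 248.6 and 245.1 CPM in sildenafil-treated LLC, against 181.3, 188.3 and 217.6 CPM in control LLC (0.28 ± 0.0778, adjusted p = 0.0295, edgeR). The lowest treated and the highest control library met, and the call was lost with that covariate and without control replicate 1, control replicate 2, sildenafil replicate 2 or sildenafil replicate 3. Bysl had 44.9, 49.2 and 53.6 CPM in sildenafil-treated LLC, against 42.3, 43.0 and 46.0 CPM in control LLC (0.17 ± 0.0688, adjusted p = 0.09, edgeR). Tsr1, a GTPase-like late 40S factor, had 129.6, 147.9 and 146.9 CPM in sildenafil-treated LLC, against 120.9, 132.1 and 128.3 CPM in control LLC (0.15 ± 0.0604, adjusted p = 0.0831, edgeR). Both overlapped and were not called. Imp3 had 70.3, 67.9 and 65.7 CPM in sildenafil-treated LLC, against 73.8, 70.3 and 77.1 CPM in control LLC (-0.12 ± 0.0516), and was not called. The counts in LLC turned on single libraries. Without control replicate 3, 9 members fell and 10 rose, where 21.2% of all genes fell and 22.4% rose. Without sildenafil replicate 2, or without sildenafil replicate 3, 3 fell, where 5.59% and 5.19% of all genes fell, and 0 rose, where 8.86% and 8.2% rose. Without control replicate 1, or without sildenafil replicate 1, 4 fell, where 7% and 8.65% of all genes fell. The counts of all genes thus moved with the same libraries.

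**Figure D3:**
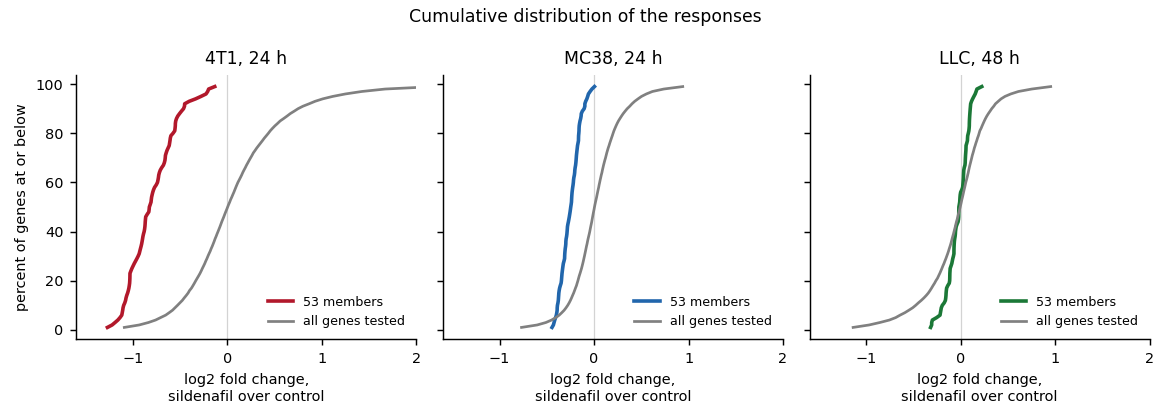
Cumulative share of genes (percent) by log2 fold change (sildenafil over control) for the 53 members and for all genes tested in each line. The members lie left of all genes in 4T1 (medians -0.83 and 0.00) and MC38 (-0.25 and 0.00), and near them in LLC (-0.02 and -0.01).

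Across the lines, Heatr1, Mybbp1a, Nat10, Noc2l, Polr1a and Utp20 fell in all 3, although Utp20 in MC38 (-0.24 ± 0.0675, adjusted p = 0.032, edgeR) lost its call with scaling by library totals and without control replicate 1, sildenafil replicate 1 or sildenafil replicate 2. A further 40 members fell in 4T1 and MC38 and were not called in LLC. Gar1, Imp4, Nop14 and Polr1c were called in 4T1 and in neither other line, and Imp3 in none of the 3. Rrp9 fell in 4T1 and LLC and was not called in MC38, and Nop58 fell in 4T1 and MC38 and rose in LLC. In 49 members the log2 fold change was lowest in 4T1, then MC38, and highest in LLC, and the other 4 were Gar1, Imp3, Rrp9 and Utp20. The share of all genes with each of these patterns, or with this order, was not computed, so these counts describe the members alone. Across the 53 members, responses in MC38 and 4T1 had Pearson's r = 0.47, against 0.49 over the 11942 genes tested in both lines. For LLC and 4T1 it was -0.08 over members, against 0.23 over all genes. These correlations run across genes of the same libraries, which are not independent, and are given as a description.

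The differences between responses were tested on all 18 libraries together. For MC38 minus 4T1, 49 of 53 differences were higher and 0 lower (edgeR, adjusted p under 0.05), where 17.9% of the 16040 genes tested were higher and 16.7% lower. The median difference was 0.55 on the log2 scale, which is a smaller fall in MC38. Rrp9 had the largest (1.24 ± 0.0832, adjusted p = 4.64e-10) and Heatr1 the next (0.89 ± 0.0630). Npm1 (0.13 ± 0.0779), Ddx52 (0.04 ± 0.0659), Imp3 (0.03 ± 0.0666) and Nop10 (0.02 ± 0.0965) were not called.

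For LLC minus 4T1, a contrast that shares the 4T1 libraries, 51 differences were higher and 0 lower, where 21.8% of all genes were higher and 20.2% lower. The median was 0.78, and 14 differences reached 2-fold, where 1.5% of all genes did. Nop58 (1.38 ± 0.0815) and Grwd1 (1.24 ± 0.0681) had the largest. Grwd1 had 85.6, 89.7 and 94.0 CPM in sildenafil-treated LLC, against 83.5, 76.8 and 86.1 CPM in control LLC, with overlap. Imp3 (-0.05 ± 0.0642) and Ddx52 (0.13 ± 0.0670) were not called.

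For LLC minus MC38, 32 differences were higher, where 12.6% of all genes were, and 1 was lower, where 9.68% were. The median was 0.23, and Nop58 (0.55 ± 0.0818) and Grwd1 (0.53 ± 0.0682) again had the largest. In MC38 Nop58 had 231.3, 221.6 and 222.2 CPM with sildenafil, against 279.5, 265.1 and 260.4 CPM in control. In MC38 Grwd1 had 61.9, 60.2 and 56.0 CPM with sildenafil, against 77.2, 79.5 and 76.8 CPM in control. Both were below their controls without overlap. The 1 lower difference was that of Rrp9 (-0.24 ± 0.0829, adjusted p = 0.045, edgeR), with a log2 fold change of -0.22 in LLC and 0.03 in MC38. Its call was lost in 11 of 20 alternatives, which include leaving out any 1 of LLC control replicates 1 and 3, LLC sildenafil replicates 1 and 3, MC38 control replicates 1 and 3 and each MC38 sildenafil replicate, as well as the replicate block and a fit of the libraries of these lines alone.

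**Figure D4:**
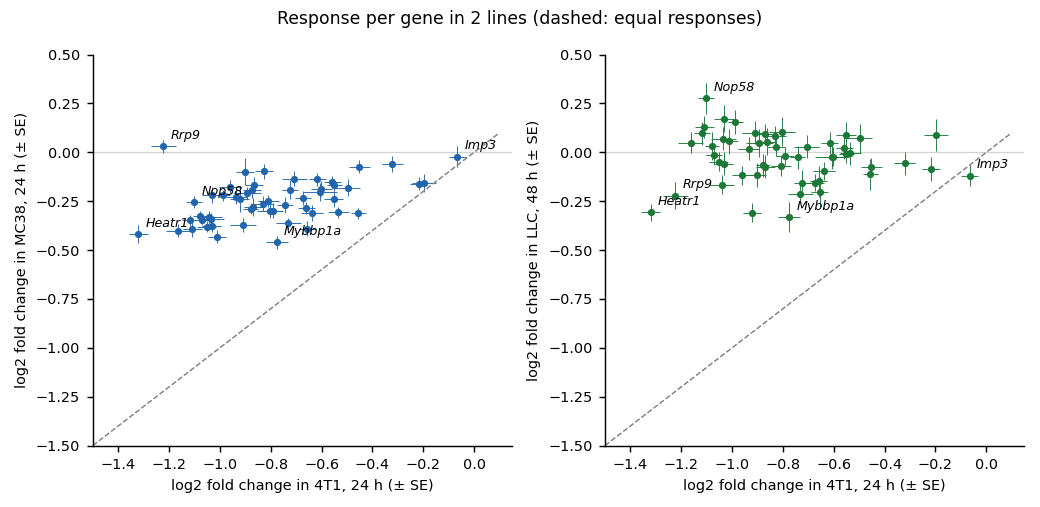
Log2 fold change (sildenafil over control, ± SE) of the 53 genes in MC38 and in LLC against that in 4T1, with a dashed line of equal response. All genes lie above the line for MC38 and all but Imp3 for LLC; Rrp9 stands at 0.03 in MC38 and -1.22 in 4T1.

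Summed markers of cell types moved with treatment, though single markers did not all move the same way. In 4T1 the 15 leukocyte markers summed to 82.2 to 89.4 CPM with sildenafil and 34.9 to 36.2 CPM in control, with Cd68 and Cd74 above 1 CPM and Adgre1, Tyrobp, Cd3e, C1qa and Cd52 at 0 in both groups. In MC38 these markers summed to 11.2 to 11.6 CPM with sildenafil and 7.55 to 8.24 CPM in control. In LLC they summed to 4.75 to 5.62 CPM with sildenafil and 2.61 to 3.22 CPM in control. The 9 fibroblast markers summed to 97.6 to 110.9 CPM in sildenafil-treated 4T1 and 47.2 to 54.0 CPM in control 4T1 (2 of 9 above 1 CPM, Col3a1 and Lum at 0 in both), and to 2211 to 2249 CPM in sildenafil-treated LLC and 1147 to 1181 CPM in control LLC (4 of 9). In MC38 the sum of the 9 fibroblast markers went the other way. It was 1127 to 1148 CPM with sildenafil and 1219 to 1252 CPM in control (7 of 9). Single markers there went both ways, as 3 of 7 tested fell and 2 rose, where 18.3% and 19.5% of all genes did. The 12 epithelial markers summed to 2352 to 2452 CPM in sildenafil-treated 4T1 and 2886 to 2987 CPM in control 4T1. They summed to 2109 to 2264 CPM in sildenafil-treated MC38 and 2612 to 2674 CPM in control MC38. Single epithelial markers went both ways in 4T1, where 6 of 11 tested fell and 3 rose. In MC38 3 of 6 tested fell and 0 rose. Of all genes tested, 33.3% fell and 33.5% rose in 4T1, and 18.3% and 19.5% in MC38. In LLC the epithelial markers summed to 182.2 to 188.9 CPM with sildenafil and 202.8 to 228.2 CPM in control. Their part in the results was not tested.

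Gm26917 also moved with treatment in 4T1 and MC38. It is a long noncoding RNA annotated on mm10 chr17:39843013-39846341 beside the 18S rRNA-related pseudogene Rn18s-rs5. It averaged 259.7 ± 18.8 CPM in sildenafil-treated 4T1 and 163.1 ± 2.62 CPM in control 4T1 (SD, n = 3 each). In MC38 it averaged 5414 ± 552 CPM with sildenafil and 11185 ± 2643 CPM in control, and in LLC 8959 ± 4305 CPM with sildenafil and 20358 ± 10162 CPM in control. It was higher with sildenafil in 4T1 (log2 fold change 0.67 ± 0.0449, SE, adjusted p = 5.37e-08, edgeR). In MC38 it was lower (-1.05 ± 0.210, adjusted p = 0.0217, edgeR). In LLC it was not called (-1.18 ± 0.573, adjusted p = 0.198, edgeR), and treated and control libraries overlapped. Treatment held a share of 0.966 of the variance of its log2 level in 4T1, 0.856 in MC38 and 0.468 in LLC. With that level as a covariate, 17 members fell in 4T1 (where 3.13% of all genes fell), 23 in MC38 (where 3.48% did) and 12 in LLC (where 6.77% did). In LLC 0 members then rose, where 9.51% of all genes did. The members' median was then -0.52 in 4T1, -0.28 in MC38 and -0.10 in LLC, against -0.83, -0.25 and -0.02 without the covariate. In 4T1 and MC38 the level of Gm26917 varied mostly with treatment, so this fit cannot separate that level from treatment. Nop14 (0.05) and Wdr74 (0.13) in 4T1 and Utp20 in MC38 (0.06) turned to a positive log2 fold change with the covariate, and none of the 3 was then called. Its part in the results was not tested.

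Myc, the gene of the MYC protein, fell in all 3 lines. It had 287.1, 288.7 and 284.8 CPM in sildenafil-treated 4T1, against 657.8, 669.9 and 681.1 CPM in control 4T1 (-1.22 ± 0.0279, adjusted p = 1.41e-12, edgeR). It had 62.6, 64.3 and 56.6 CPM in sildenafil-treated MC38, against 66.8, 70.8 and 71.3 CPM in control MC38 (-0.19 ± 0.0472, adjusted p = 0.00593, edgeR). It had 273.1, 248.4 and 266.5 CPM in sildenafil-treated LLC, against 416.5, 383.1 and 318.7 CPM in control LLC (-0.51 ± 0.0937, adjusted p = 0.00668, edgeR). The log2 fold change of Myc was thus lowest in 4T1, as was the members' median, and lower in LLC than in MC38, where the members' medians had the opposite order. These orders were not tested. Of a list of MYC network genes, Myc included, 3 of 11 tested fell and 7 rose in 4T1, 3 of 12 fell and 3 rose in MC38, and 3 of 10 fell and 4 rose in LLC. Among all genes tested, 33.3% fell and 33.5% rose in 4T1, 18.3% and 19.5% in MC38, and 12.2% and 15.1% in LLC.

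Genes of the same pathway outside the set were read from lists made by function. Of all genes tested, 33.3% fell and 33.5% rose in 4T1, 18.3% and 19.5% in MC38, and 12.2% and 15.1% in LLC. Of 107 other ribosome biogenesis genes, 93 fell and 6 rose in 4T1 (median -0.55), 73 fell and 2 rose in MC38 (median -0.17), and 8 fell and 6 rose in LLC (median 0.00). In 4T1 the falls included 9 of 12 genes of RNA polymerase I transcription, 35 of 39 of the processome, 36 of 42 of 60S assembly, and 13 of 14 of snoRNP assembly and other nucleolar factors. The counts that fell in MC38 were 8, 25, 31 and 9 in the same order, and in LLC 0, 2, 3 and 3. Of the RNA exosome and RNase MRP, which trim and cut the precursor, 20 of 23 tested fell in 4T1, 13 of 23 in MC38 and 1 of 22 in LLC. Of 22 subunits of RNA polymerase III, which makes 5S rRNA and tRNAs, 18 fell and 3 rose in 4T1, 7 fell and 3 rose in MC38, and 1 fell and 2 rose in LLC.

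Without treatment, the lines differed gene by gene and not in 1 direction. With scaling over all 18 libraries, the 53 genes summed to 9120 ± 381 CPM in untreated LLC and 11438 ± 102 CPM in untreated MC38. In untreated 4T1 they summed to 12005 ± 183 CPM (SD, n = 3 each). Npm1 and Ncl weigh most in these sums. Npm1 averaged 1813 CPM in untreated LLC, 3094 in MC38 and 2318 in 4T1, and Ncl 659, 700 and 2125 CPM. For MC38 against 4T1, 21 members were lower and 21 higher (edgeR, adjusted p under 0.05), where 42.7% of all genes were lower and 42.1% higher. For LLC against 4T1, 27 were lower and 19 higher, where 45.8% of all genes were lower and 41.3% higher. For LLC against MC38, 26 were lower and 16 higher, where 39% were lower and 38% higher. Differences of 2-fold were called in 6 members for MC38 against 4T1 (3 in each direction, where 21.9% of all genes were lower and 22.2% higher by as much). The untreated mean was highest in 4T1 for 20 members, in MC38 for 19 and in LLC for 14. The libraries also differed in RNA that lacks a poly(A) tail. Of 9 tested genes of such RNA, 8 were higher and 1 lower in untreated MC38 than in untreated 4T1 (median log2 difference 8.39). All 9 were higher in untreated LLC than in untreated 4T1 (median 9.17). The part of this difference in the untreated levels of the members was not tested.

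Gar1 and Ncl had the widest gaps below 4T1. Gar1, on chr3:129824912-129831396 (minus strand), had 24.5, 24.0 and 27.0 CPM in untreated LLC, 22.5, 22.2 and 21.8 CPM in untreated MC38 and 83.9, 83.4 and 86.6 CPM in untreated 4T1. Its log2 difference was -1.75 ± 0.0587 for LLC against 4T1 and -1.93 ± 0.0595 for MC38 against 4T1. Ncl, on chr1:86344719-86359400 (minus strand), had 662.9, 668.4 and 647.2 CPM in untreated LLC, 745.4, 691.9 and 663.7 CPM in untreated MC38 and 2134, 2163 and 2077 CPM in untreated 4T1. Its differences from 4T1 were -1.69 ± 0.0575 for LLC and -1.601 ± 0.0573 for MC38, while LLC against MC38 missed the threshold (-0.09 ± 0.0562, adjusted p = 0.165, edgeR). In both genes the 4T1 libraries stood far above the rest.

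Polr1a, Polr1b and Nop10 were higher in LLC and MC38 than in 4T1. Polr1a, on chr6:71909053-71984935 (plus strand), had 184.3, 185.4 and 177.1 CPM in untreated LLC, 201.5, 196.4 and 209.1 CPM in untreated MC38 and 91.5, 92.3 and 92.2 CPM in untreated 4T1. Its difference from 4T1 was 0.99 ± 0.0367 for LLC and 1.14 ± 0.0368 for MC38. Polr1b had 60.9, 65.2 and 65.9 CPM in untreated LLC, 137.9, 134.0 and 139.4 CPM in untreated MC38 and 51.3, 51.6 and 52.3 CPM in untreated 4T1, with 1.41 ± 0.0366 for MC38 against 4T1. Polr1b was well above the others in MC38 alone, whereas Polr1a was high in both LLC and MC38. Polr1c ran the other way, with 59.5 ± 3.75 CPM in untreated LLC, 55.3 ± 0.455 CPM in untreated MC38 and 94.5 ± 4.62 CPM in untreated 4T1 (SD, n = 3 each). Nop10 had 73.1, 66.1 and 85.5 CPM in untreated LLC, 73.3, 67.8 and 70.9 CPM in untreated MC38 and 33.1, 33.6 and 36.7 CPM in untreated 4T1 (1.12 ± 0.0685 for LLC against 4T1). Gar1 and Nop10 belong to the same particle, and their untreated levels differed between lines in opposite directions.

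For LLC against MC38, Nip7 and Rrp12 had the lowest log2 differences and Imp3 and Noc2l the highest. Nip7, a 60S factor, had 47.3, 49.1 and 56.8 CPM in untreated LLC and 129.4, 128.1 and 130.3 CPM in untreated MC38 (-1.34 ± 0.0608). Rrp12 had 44.7, 46.0 and 46.8 CPM in untreated LLC and 100.8, 103.3 and 103.5 CPM in untreated MC38 (-1.16 ± 0.0493). Both genes were well below MC38 in every LLC library. Imp3 had 72.4, 69.0 and 76.1 CPM in untreated LLC and 35.8, 38.1 and 35.0 CPM in untreated MC38 (1.00 ± 0.0481), while untreated 4T1 (72.4 ± 0.420 CPM, SD, n = 3) overlapped LLC. Noc2l had 349.2, 369.8 and 354.0 CPM in untreated LLC and 208.1, 211.2 and 211.7 CPM in untreated MC38 (0.77 ± 0.0448). In all 4 genes the LLC and MC38 libraries did not overlap. All 5 late 40S factors were lower in LLC than in 4T1, from Nob1 at -1.61 ± 0.0543 to Ltv1 at -0.16 ± 0.0619. Scaling by library totals moved the median of all genes for MC38 against 4T1 to -0.10, so a difference of that size depends on the scaling.

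**Figure D5:**
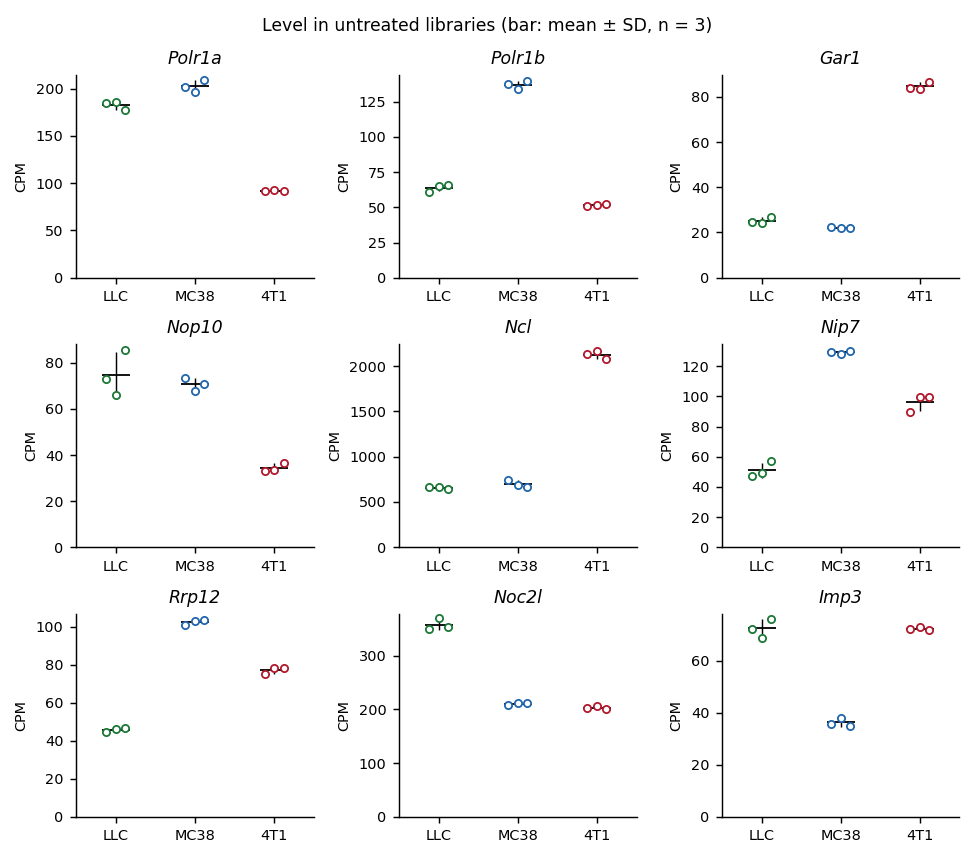
CPM per untreated library, scaled over all 18 libraries, of 9 genes in LLC, MC38 and 4T1, with the mean ± SD of 3 libraries and axes from 0. Gar1 and Ncl are highest in 4T1, Polr1a and Nop10 lowest there, Polr1b highest in MC38, Nip7 and Rrp12 lowest in LLC, and Noc2l highest in LLC.

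Within groups, the median coefficient of variation of the 53 genes was 3.01% in sildenafil-treated and 2.58% in control 4T1, 2.78% in sildenafil-treated and 2.39% in control MC38, and 4.26% in sildenafil-treated and 5.61% in control LLC. The median standard error of a log2 fold change was 0.0581 in LLC, against 0.0341 in MC38 and 0.0368 in 4T1. Exons of 22 of the 53 genes overlap a gene on the other strand, by 2122 bases for Tbl3 with Noxo1 and 1240 bases for Tsr1 with Srr. Whether counting used the strand is not given in the sources used here, and their counts may include reads of the partner. Exons of Gnl3, Ncl, Nop56 and Nop58 overlap small RNA genes on the same strand, and Npm1 is known to have processed pseudogenes, so these counts are less certain.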

How the data were processed

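RNA-seq was made from 18 libraries of 3 mouse cell lines (TruSeq stranded mRNA, oligo-dT selection, paired ends of 100 cycles), per the labels' protocols. The authors deposited expected counts per gene for 55450 genes, from RSEM 1.3.1, per the submitters' processing notes, which also name bcl2fastq 2.17, cutadapt 1.18, STAR 2.7.0f and mm10. Neither the gene annotation nor the strand setting nor the order of steps is given in the sources used here, and all gene IDs match GENCODE M21. Between 4.30% and 6.91% of values per library were not whole, since RSEM divides reads that fit several genes, and all were rounded here. Reads carry no molecular identifiers, so depth limits precision for counting error only.

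Genes were filtered by edgeR's default on low counts and scaled by TMM. Each line's 6 libraries were fitted alone with robust quasi-likelihood tests in edgeR 4.0.16 (R 4.3.3). Differences between responses and between untreated lines came from 1 fit over all 18 libraries with 1 coefficient per group. P-values were adjusted by Benjamini-Hochberg over all genes tested, at 0.05, and the SE is the absolute log2 fold change over the root of F. CPM within a line uses that line's scaling. The scripts were tested on simulated data, where in each line the share of wrong calls was above the nominal 0.05 and fewer small than large changes were recovered. Alternatives were DESeq2 1.42.0, other scalings and filters, protein-coding genes alone, Gm26917 as covariate, a replicate block, and leaving out each library. No library pair of a group agreed within sampling noise (chi-square per degree of freedom 2.87 to 53.0).

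Values per library were given for the 3 members with the lowest and the 3 with the highest log2 fold change in each line, the member with the highest level per length in each role, and the members with the largest differences between lines. A few other members, among them Nop2, Grwd1 in 4T1 and Polr1b in 4T1, were given per library by choice after their values were seen. The members and lists were chosen with earlier results of these data known.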

Additional observations from a re-analysis of the deposited data

Results flagged for a closer look

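In 7 cases a member's response to sildenafil differed between lines by a test of the difference itself (edgeR, 18 libraries, adjusted p under 0.05), among the members with the largest differences of each pair. For MC38 minus 4T1 these were Rrp9 (1.24 on the log2 scale) and Heatr1 (0.89), both with a smaller fall or none in MC38. For LLC minus 4T1 they were Nop58 (1.38) and Grwd1 (1.24). For LLC minus MC38 they were Nop58 (0.55), Grwd1 (0.53) and Rrp9 (-0.24, adjusted p = 0.045), the last being the 1 member with a lower value in LLC than in MC38 that passed. Line and medium cannot be told apart in the differences of MC38 from 4T1, line and treatment time in those of LLC from MC38, and line, medium and time in those of LLC from 4T1.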

How the results depend on the processing

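The count of members that fell was 52 in 4T1 without any 1 library (range 52 to 52, where 30.2% to 33.3% of all genes fell), 45 to 48 in MC38 (14.0% to 16.6%) and 3 to 9 in LLC (5.19% to 21.2%), and the count that rose in LLC was 0 to 10, where 8.2% to 22.4% of all genes rose. With Gm26917 as covariate 17 fell in 4T1, 23 in MC38 and 12 in LLC, where 3.13%, 3.48% and 6.77% of all genes fell. In LLC 0 members rose with it, where 9.51% of all genes did. The number that rose in LLC was also 6 in 1 fit over 18 libraries, 3 with no filter and 3 with the replicate block, where 19.3%, 10.1% and 15.6% of all genes rose. For LLC minus MC38, the number lower was 0 with only the libraries of the 2 lines and 0 with the replicate block. In these settings 9.02% and 8.97% of all genes were lower. When 1 library was left out, 0 to 1 members were lower (7.5% to 12.7% of all genes) and 24 to 37 higher (9.79% to 16%).

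Same-numbered deviations correlated at 0.01, 0.08 and -0.07 in 4T1, 0.08, 0.05 and 0.26 in MC38, and 0.23, -0.10 and 0.14 in LLC. With so few libraries these values cannot decide whether replicate numbers pair the samples. With the replicate block, calls among all genes went from 5047 to 5867 in MC38 and from 3702 to 4078 in LLC. In 4T1 they went from 9285 to 9090. Besides the counts above, the block also lost the call of Ncl in MC38.

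Values near 0 changed sign. Imp3 in 4T1 was 0.041 with the covariate and 0.0028 with library totals. Imp3 in MC38 was 0.0020 with library totals, 0.016 without control replicate 2 and 0.0070 without sildenafil replicate 1 (range over libraries -0.068 to 0.016). Rrp9 in MC38 was -0.053 with the covariate. The members' median in LLC was 0.014 without control replicate 3 and 0.011 without sildenafil replicate 1 (range -0.038 to 0.014). The untreated median was 0.035 for LLC against 4T1 with the filter of 5 CPM. For untreated MC38 against 4T1 it was 0.076 with that filter, 0.012 with DESeq2 and with RLE size factors, 0.0082 with only the libraries of the 2 lines, 0.00079 with protein-coding genes alone, 0.0014 without 4T1 control replicate 2 and 0.0058 without MC38 control replicate 1 (range -0.025 to 0.0058). The causes were not tested. Of the counts of members under all alternatives, 266 stayed within 1.5 times the reported count and 28 did not.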
